A study of Mus musculus with 4 samples.

Results

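The Serpina3 antiprotease family was followed through its 4 genes Serpina3f, Serpina3g, Serpina3m and Serpina3n, which the deposited table writes as SERPINA3F, SERPINA3G, SERPINA3M and SERPINA3N. Of these 4 genes, 3 were listed at each time point, among 14125 genes at 7 days post injury (dpi) and 11472 at 21 dpi, or 14718 genes in all. Serpina3f had no row at either time point and was not analysed here. The genes were selected on measured values of the same contrast between genotypes that is given below, so their levels are a description, and no test was made on them.

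The samples are spinal cord segments of about 4 mm around the lesion of male mice, 3 to 5 months old, after a 50 kdyne contusion at the mid-thoracic level. All mice were targeted replacement mice, in which the murine Apoe gene is exchanged for a human allele, ApoE3 in one genotype and ApoE4 in the other. The 4 groups are therefore ApoE3 at 7 dpi, ApoE4 at 7 dpi, ApoE3 at 21 dpi and ApoE4 at 21 dpi, all injured, with 3 mice in each by the methods of the study. The table gives 1 value per gene and group, which pools those mice, so no spread between animals was computed here. The values are FPKM (fragments normalized to the length of the transcript and to the size of the library), and the number of reads behind each value is unknown.

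Serpins are inhibitors that trap a serine protease when it cuts an exposed loop near their carboxyl end, the reactive centre loop, and they are used up in the process. The human genome has one SERPINA3 gene, alpha-1-antichymotrypsin, whereas the mouse has a cluster of copies on chromosome 12 that differ most in this loop and therefore in the proteases they can bind. Serpina3n is secreted, is an acute-phase protein of the liver and is one of the best known markers of reactive astrocytes, whereas Serpina3g is known as an intracellular inhibitor of cysteine cathepsins that is induced by interferon-gamma in myeloid and T cells.

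The coding sequences show how alike and how different the members are. They are given 5′ to 3′ from GENCODE vM21 transcripts of GRCm38, with capitals at each base that differs from Serpina3n. The stretch with the fewest differences without gaps lies at coding bases 1057 to 1116 of the 1254 of Serpina3n, in the part that encodes the hinge leading into the loop. There Serpina3m has the same 60 bases as Serpina3n, Serpina3f differs at 1 and Serpina3g at 3.
Serpina3n: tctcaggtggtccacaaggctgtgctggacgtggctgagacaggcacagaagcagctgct
Serpina3g: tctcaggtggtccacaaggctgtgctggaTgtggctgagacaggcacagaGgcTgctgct

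The stretch with the most differences lies a little further on, at coding bases 1138 to 1197, and covers the far part of the loop and the sequence after it. Here Serpina3g and Serpina3m each differ from Serpina3n at 25 of 60 bases, in part at different positions. The Serpina3f alignment holds extra bases in this stretch and is not printed.
Serpina3n: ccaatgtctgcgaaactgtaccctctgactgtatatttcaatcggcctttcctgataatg
Serpina3g: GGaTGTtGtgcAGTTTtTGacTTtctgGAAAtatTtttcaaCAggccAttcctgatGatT
Serpina3m: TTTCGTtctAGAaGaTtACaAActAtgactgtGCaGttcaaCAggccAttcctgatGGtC

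Over the whole aligned coding sequence, Serpina3n shared 85.2% of bases with Serpina3m, 84.7% with Serpina3g and 85.3% with Serpina3f. The value for Serpina3g covers only 648 aligned bases, since its annotated coding sequence has 744 bases and leaves 702 positions of the alignment as gaps. Copies this close can exchange reads, so each transcript was cut into every window of 100 bases, the length of the reads, and each window was sought in the transcripts of the other Serpina3 genes. Of the 1965 windows of Serpina3n, 3.87% came within 2 mismatches of another Serpina3 transcript, against 15.2% of the windows of Serpina3g and 19.9% of the 1560 windows of Serpina3m. The near copy of Serpina3m was Serpina3k, with 91.8% of coding bases in common and 270 of the Serpina3m windows, whereas none of the Serpina3m windows came this close to Serpina3n, Serpina3g or Serpina3f. Serpina3n shared 52 of its 76 such windows with the pseudogene Serpina3e-ps, 29 with Serpina3g and 24 with Serpina3f, and a window can count for several genes. How the authors' counting divided reads among these copies is not given in the sources used here, so the split within each pair is uncertain, and the sum of the family is given beside each member. Serpina3k is not part of that sum, so the sum does not cover reads exchanged between Serpina3m and Serpina3k. GENCODE gives these 2 genes the same start, at base 104338486, and its part in the shared windows was not tested.

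**Figure D1:**
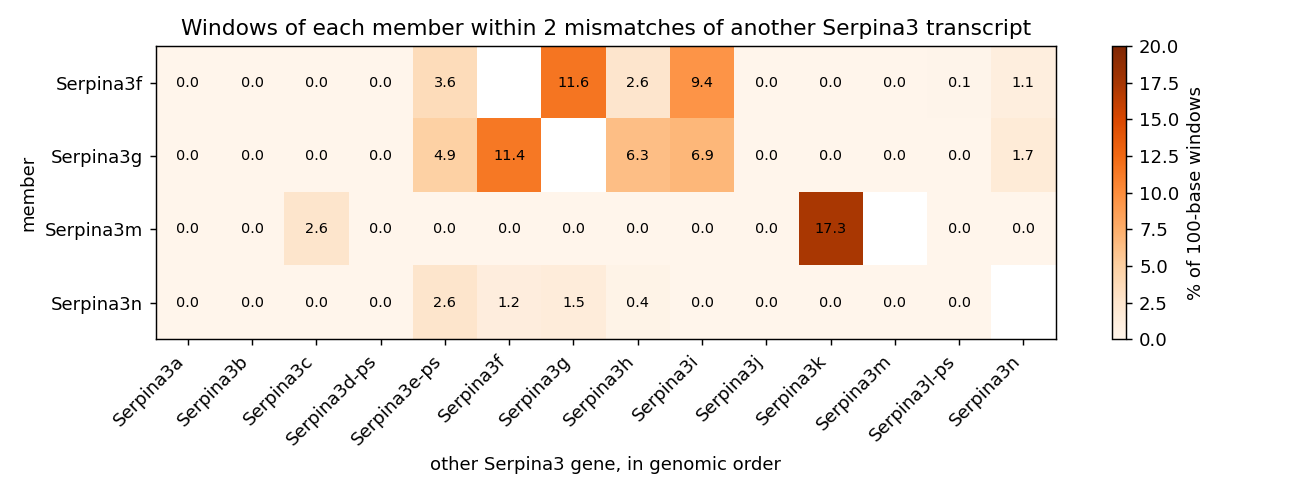
Share of the 100-base windows of each member (rows) that lie within 2 mismatches of a transcript of another Serpina3 gene (columns, in genomic order), in percent. The darkest cell is Serpina3m with Serpina3k, Serpina3f and Serpina3g share windows with each other and with Serpina3i, and the Serpina3n row stays pale.

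Promoter sequences of RefSeq, 250 bases before to 50 after the start of transcription on GRCm38.p6, were at hand for Serpina3f, Serpina3g and Serpina3n. They are shown as the reference sequence in front of Serpina3g and Serpina3n, with that of Serpina3f as the nearest copy of the Serpina3g window. Each window of 93 bases on the plus strand ends at a run of 13 bases that the promoters share, and capitals mark a gamma-activated site (GAS, letters TTCNNNGAA), the element that STAT factors can bind.
Serpina3f: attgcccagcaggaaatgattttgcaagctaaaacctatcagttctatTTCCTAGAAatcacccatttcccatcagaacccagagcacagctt
Serpina3g: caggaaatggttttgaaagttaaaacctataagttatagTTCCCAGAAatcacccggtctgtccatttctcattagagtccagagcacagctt
Serpina3n: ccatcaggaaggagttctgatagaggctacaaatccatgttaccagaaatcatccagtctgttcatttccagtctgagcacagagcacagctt

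The windows lie at chr12:104214375-104214467 for Serpina3f, chr12:104236075-104236167 for Serpina3g and chr12:104406546-104406638 for Serpina3n, and the Serpina3g window takes in 21 bases of its RefSeq transcript. Over aligned bases, the Serpina3f and Serpina3g windows were 86.9% identical and those of Serpina3g and Serpina3n 73.0%. The GAS letters stood 121 bases before the first of the 2 starts listed for Serpina3f and 33 bases before the RefSeq start of Serpina3g, and were not found in the whole promoter of Serpina3n. GENCODE places the start of Serpina3g further downstream, at base 104236245, so its distance depends on the annotation. Of 32851 promoters of this length, 8.30% held these letters on either strand. The letters of a C/EBP site (TTGCNNAA, in 10.8% of promoters) were found 2 times in Serpina3f, on the minus strand and clear of its GAS, and not in Serpina3g or Serpina3n. The promoter of Serpina3i also held GAS letters. A match describes the sequence only, and its absence from this window says nothing about the factor.

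The level of the family in the lesion was set by Serpina3n in every group. Serpina3n was at 821 FPKM in ApoE3 and 1083 FPKM in ApoE4 at 7 dpi, and at 605 FPKM in ApoE3 and 1030.1 FPKM in ApoE4 at 21 dpi. As listed, both ApoE4 values stood above both ApoE3 values, in the order ApoE4 at 7 dpi, ApoE4 at 21 dpi, ApoE3 at 7 dpi and ApoE3 at 21 dpi. With 1 value per group, it cannot be said which neighbours in this order differ beyond the spread between mice. The order also leaves the levels of the 2 time points unadjusted. From 7 to 21 dpi the median log2 ratio of all genes was 0.089 in ApoE3 and 0.53 in ApoE4. No order was computed with that shift removed. Serpina3n ranked 264th of 14125 genes by FPKM in ApoE3 and 169th in ApoE4 at 7 dpi, and 375th and 285th of 11472 genes at 21 dpi.

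Serpina3m, whose closest copy Serpina3k is made in the liver, had the widest range of the members as a fold, though not in FPKM. It was at 2.37 FPKM in ApoE3 and 50.7 FPKM in ApoE4 at 7 dpi, and at 22.9 FPKM in ApoE3 and 36.6 FPKM in ApoE4 at 21 dpi. The ApoE3 value at 7 dpi stood far below the other 3 groups. It ranked 13280th of 14125 genes in that group, against 5511th in ApoE4 at the same time.

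Serpina3g, the intracellular member, was at 8.39 FPKM in ApoE3 and 17.1 FPKM in ApoE4 at 7 dpi, and at 11.4 FPKM in ApoE3 and 9.66 FPKM in ApoE4 at 21 dpi. Its highest value was that of ApoE4 at 7 dpi. At 21 dpi the listed values of the 2 genotypes were close, with ApoE3 slightly above. Of all genes, 93.85% were lower in ApoE3 at that time, so relative to most genes Serpina3g stood towards ApoE3.

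**Figure D2:**
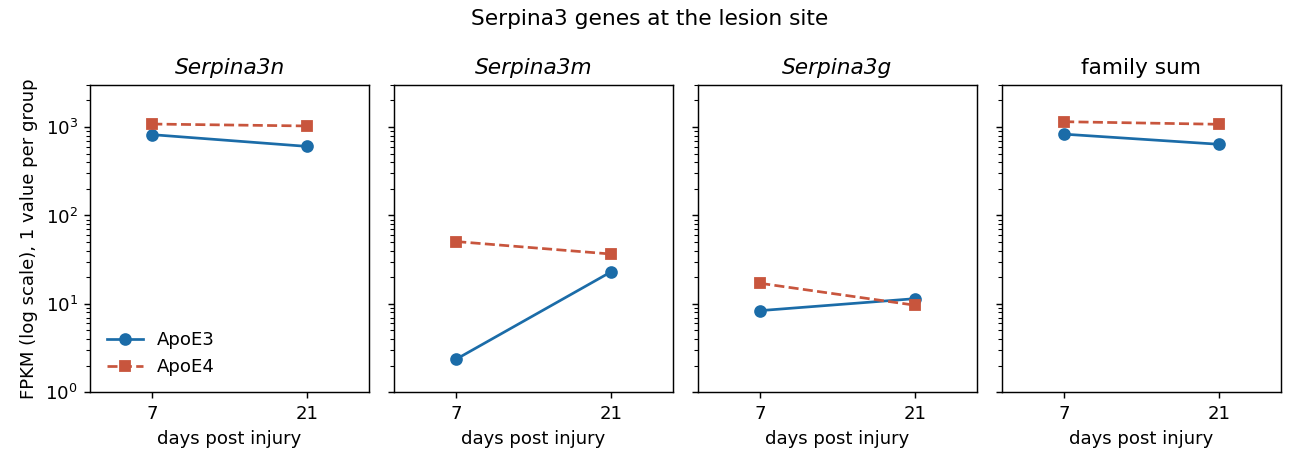
FPKM (log scale) of Serpina3n, Serpina3m, Serpina3g and their sum at 7 and 21 days post injury, with 1 pooled value for each group, ApoE3 in circles and ApoE4 in squares. Serpina3n and the sum lie higher in ApoE4 at both times, Serpina3m of ApoE3 is at 2.37 and then 22.9 FPKM, and the Serpina3g lines cross.

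At 7 dpi, the question was whether the antiprotease genes differ between genotypes early after the injury. The log2 ratio of ApoE3 to ApoE4, computed on FPKM plus 1 and negative where ApoE4 is higher, was -0.40 for Serpina3n, -0.95 for Serpina3g and -3.94 for Serpina3m. On the same scale ApoE4 was 1.32-fold higher for Serpina3n, 1.93-fold for Serpina3g and 15.3-fold for Serpina3m. The ratio of Serpina3m was the lowest of all 14125 genes, and that of Serpina3g was the 41st lowest.

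All 3 listed members were at least 1.3-fold higher in ApoE4, the fold change used by the study, and Serpina3n was just past it. Of all genes, 4.76% were at least 1.3-fold higher in ApoE4 and 3.78% in ApoE3. The members were chosen on this contrast, so nothing is read from that difference. Over genes whose mean FPKM reached 1, the middle log2 ratio (the median used throughout) was 0.0018 at this time point, and subtracting it left all 3 members past 1.3-fold.

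The summed family was at 832 FPKM in ApoE3 and 1151 FPKM in ApoE4 at 7 dpi, a log2 ratio of -0.47 or 1.38-fold. Serpina3n made up 98.7% of the sum in ApoE3 and 94.1% in ApoE4, and 82.1% of the difference in FPKM between genotypes. Serpina3m made up 0.285% of the sum in ApoE3 and 4.40% in ApoE4, and contributed 15.2% of the difference. Serpina3g contributed 2.73%. Most of the additional family RNA in ApoE4 was therefore Serpina3n, although its fold difference was the smallest of the members.

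At 21 dpi, the later stage at which the genotypes were compared, the whole table was shifted towards ApoE4, with a median log2 ratio of -0.42 and 93.85% of genes lower in ApoE3, against 49.55% at 7 dpi. The listed FPKM summed to 1513554 in ApoE3 and 2050348 in ApoE4, whereas at 7 dpi they were 1669246 and 1669456. The ratios of the members at 21 dpi are therefore given with their values relative to that median, as are the counts and medians of the gene lists. The source of the shift, whether in the scaling of the values or in the tissue, was not tested. For a single gene in tissue of this kind, fewer cells of a type and less RNA per cell cannot be told apart.

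The log2 ratio of Serpina3n was -0.77 at 21 dpi, or 1.70-fold higher in ApoE4, and -0.34 relative to the median. That of Serpina3m was -0.65, or 1.57-fold, and -0.23 relative to the median. Serpina3g had a log2 ratio of 0.22, and 0.65 relative to the median, with 97.0% of genes at or below it.

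Thus 2 of the 3 listed members, Serpina3n and Serpina3m, were at least 1.3-fold higher in ApoE4, beside 58.9% of all genes, and no member was at least 1.3-fold higher in ApoE3, beside 2.01% of genes. The count of members is near this background. Relative to the median, no member was past 1.3-fold towards ApoE4, and Serpina3g alone was past it towards ApoE3. The share of all genes past 1.3-fold on that scale was not computed. Nothing is therefore read from this count, or from the counts of the gene lists on that scale. Serpina3n kept a ratio lower than most genes, with 9.47% of genes at or below it.

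The summed family was at 639 FPKM in ApoE3 and 1076 FPKM in ApoE4 at 21 dpi, a log2 ratio of -0.75 or 1.68-fold, and -0.33 relative to the median. Serpina3n made up 94.6% of the sum in ApoE3 and 95.7% in ApoE4, and 97.3% of the difference. Serpina3m held 3.58% and 3.40% of the sum, and Serpina3g 1.79% and 0.898%. The shares of Serpina3n and Serpina3m were thus closer between genotypes than at 7 dpi, when that of Serpina3m was far smaller in ApoE3. The shares of Serpina3g, 1.01% in ApoE3 and 1.48% in ApoE4 at 7 dpi, were further apart at 21 dpi.

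**Figure D3:**
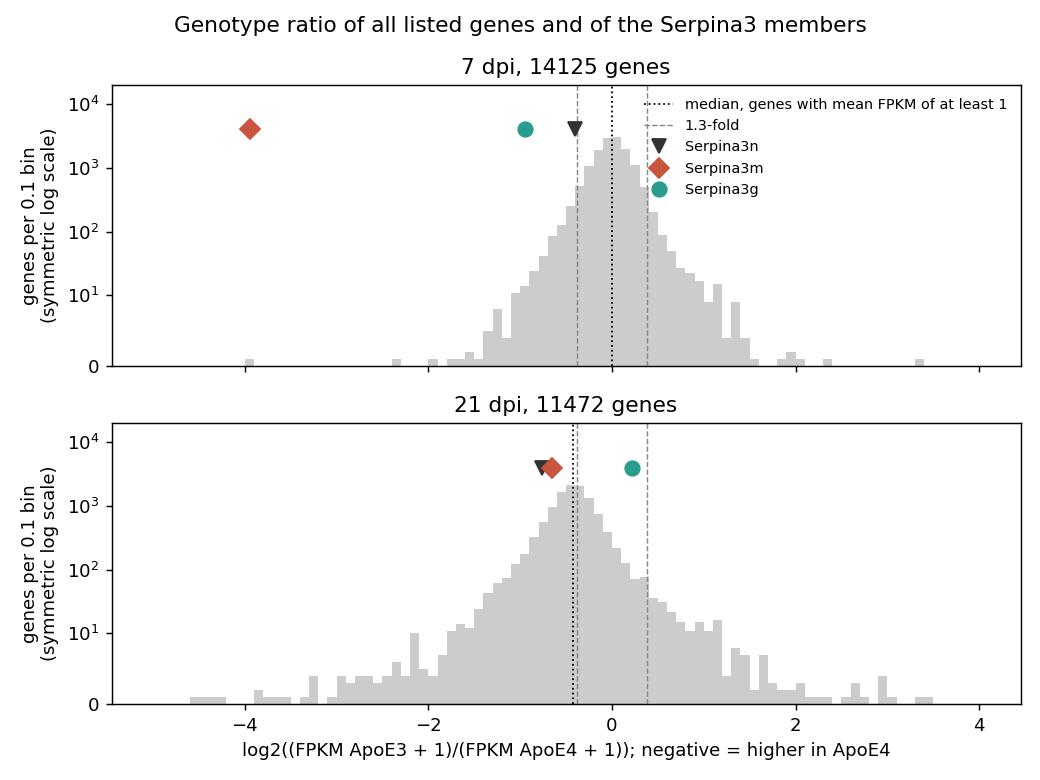
Number of genes (symmetric log scale) in bins of 0.1 of the log2 ratio of ApoE3 to ApoE4 at 7 dpi (14125 genes) and 21 dpi (11472 genes), with the members above the bars at their ratios. Dashed lines mark 1.3-fold and the dotted line the median, which lies at 0.0018 at 7 dpi and -0.42 at 21 dpi, where Serpina3n and Serpina3m sit inside the bulk of genes and Serpina3g to its right.

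Between the time points, the members had different ratios in each genotype, with the limit that both time points may have been scaled separately. In ApoE3 the log2 ratio of 21 to 7 dpi was 2.83 for Serpina3m, a 7.10-fold higher value on the FPKM plus 1 scale, and 99.95% of the 10879 genes listed at both times had a ratio at or below it. The same ratio was 0.41 for Serpina3g and -0.44 for Serpina3n, where the median of all genes was 0.089. The family sum followed Serpina3n, at -0.38.

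In ApoE4 the log2 ratio of 21 to 7 dpi was -0.072 for Serpina3n, -0.46 for Serpina3m and -0.76 for Serpina3g, where the median of all genes was 0.53. Each member was thus lower at 21 dpi relative to the other genes of that genotype. The family sum stood at -0.096.

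The genotype ratio itself moved by 3.29 log2 units for Serpina3m between 7 and 21 dpi, towards a smaller difference, and by 1.17 for Serpina3g, which passed 0. It moved by -0.37 for Serpina3n, but by 0.057 once the median of each time point was removed. The ratio of Serpina3n relative to other genes was therefore nearly the same at both times, whereas those of Serpina3m and Serpina3g were not. These differences were not tested.

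Among the other genes of the cluster, Serpina3i was at 4.30 FPKM in ApoE3 and 5.02 FPKM in ApoE4 at 7 dpi, and at 3.26 and 7.30 FPKM at 21 dpi, with log2 ratios of -0.18 and -0.96, the latter -0.54 relative to the median. Serpina3k, the near copy of Serpina3m, was at 0.0534 FPKM in ApoE3 and 2.19 FPKM in ApoE4 at 21 dpi, and Serpina3c at 2.03 and 2.18 FPKM. At 7 dpi, when Serpina3m differed most, Serpina3k and Serpina3c were not analysed here, so no value of the near copy stands beside that difference. Adding these genes to the sum left its direction at both times.

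The genes whose pattern over the 4 groups was most like the family were sought among 10858 genes, by the Euclidean distance between log2 values of FPKM plus 1 after the mean of the groups was subtracted. For the sum they were Pole, the catalytic subunit of DNA polymerase epsilon, at a distance of 0.0517, Cenpn at 0.0778, Ice2 at 0.0788, P3h1 at 0.0855 and Hilpda at 0.0958. For Serpina3n they were P3h1, a collagen prolyl hydroxylase, at 0.0675, Pole at 0.0696, Itgav, the integrin alpha V subunit, at 0.071, Ice2 at 0.0935 and Derl2 at 0.0938. The other members were compared after their values were seen. Clcf1, a cytokine of the IL-6 family, was nearest to Serpina3g at 0.111, with 9.86 FPKM in ApoE3 and 19.3 FPKM in ApoE4 at 7 dpi, and 14.0 and 12.2 FPKM at 21 dpi. The gene nearest to Serpina3m, Lrmda, was at a distance of 1.63, so no gene followed its 4 values as closely. With only 4 groups, many genes can share a pattern.

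Cytokines of the IL-6 family, acting through JAK kinases and STAT3, are known inducers of acute-phase serpins, together with IL-1, TNF, NF-kB and the glucocorticoid receptor. Of the 21 genes of this list of inducers, 20 were listed at 7 dpi, 5 were at least 1.3-fold higher in ApoE4 and none in ApoE3, beside 4.76% and 3.78% of all genes. The list had a median log2 ratio of -0.12. The 5, named after their values were seen, were the cytokines Lif and Osm, the feedback inhibitor Socs3 and the transcription factors Cebpb and Cebpd. Cebpd was at 3.61 FPKM in ApoE3 and 7.40 FPKM in ApoE4, Cebpb at 21.6 and 37.4 FPKM, and Lif at 5.95 and 10.2 FPKM.

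Abundant genes of the list stood close in both genotypes at 7 dpi. Stat3 was at 205 FPKM in ApoE3 and 198 FPKM in ApoE4, and Jak1 at 307 and 294 FPKM. At 21 dpi 16 genes of the list had values, 11 were at least 1.3-fold higher in ApoE4 and none in ApoE3, beside the 58.9% of all genes on the ApoE4 side. Relative to the median of all genes, 3 were past this fold towards ApoE4 and 1 towards ApoE3, and the list median of -0.52 became -0.098.

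The interferon-gamma axis, which induces Serpina3g in immune cells, had its larger differences on the ApoE3 side at 7 dpi. Of 15 genes, 12 were listed, none was at least 1.3-fold higher in ApoE4, whereas 5 were so in ApoE3, beside 4.76% and 3.78% of all genes. The median of this list was a log2 ratio of 0.13. Among the 5, also named after their values were seen, were the chemokines Cxcl9 and Cxcl10 and the guanylate-binding proteins Gbp2 and Gbp3. Cxcl10 was at 34.2 FPKM in ApoE3 and 13.0 FPKM in ApoE4. The part of this axis in the values of Serpina3g was not tested. At 21 dpi 7 genes were listed, 6 of them at least 1.3-fold higher in ApoE4, where 58.9% of all genes were, with a median of -0.66. Once the shift of the whole table was removed, 2 of the 7 were past this fold, both towards ApoE4, and the list median was -0.24.

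Acute-phase proteins, the class to which Serpina3n belongs, had members past 1.3-fold in both directions at 7 dpi. Of 21 genes, 11 were listed, of which Lrg1 was at least 1.3-fold higher in ApoE4, and Itih3, Saa3 and Lcn2 stood past this fold on the ApoE3 side, beside 4.76% and 3.78% of all genes. The list median was 0.03. The complement genes C4b, at 2721 and 2799 FPKM, and C3, at 216 and 211 FPKM in ApoE3 and ApoE4, stood close. At 21 dpi 12 were listed, 8 higher in ApoE4 and Saa1 higher in ApoE3, beside 58.9% of all genes higher in ApoE4. Relative to the median of all genes, 3 were past this fold towards each genotype, and the list median of -0.68 became -0.26. C4b was then at 2739 FPKM in ApoE3 and 4439 FPKM in ApoE4.

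Reactive astrocyte markers describe the cells in which Serpina3n is best known. All 20 were listed at 7 dpi, 3 of them at least 1.3-fold higher in ApoE4 (Clcf1, Emp1 and Hspb1) and 2 in ApoE3 (Lcn2 and Cxcl10), beside 4.76% and 3.78% of all genes, and the list median was -0.17. Gfap, the intermediate filament that defines these cells, was at 12395 FPKM in ApoE3 and 12386 FPKM in ApoE4. Of the 20, 15 had a ratio below the median of all genes. Gfap was among them, at -0.0007 relative to that median, as was Vim, at 528 and 611 FPKM. The part of astrocyte number or state in the members' values was not tested. At 21 dpi 12 of 18 were higher in ApoE4 and Serping1 was higher in ApoE3, beside 58.9% of all genes higher in ApoE4. Relative to the median of all genes, 2 were past this fold towards ApoE4 and 5 towards ApoE3. Of the 18, 11 still lay below that median, and the list median of -0.49 became -0.064. Gfap was then at 8201 FPKM in ApoE3 and 15313 FPKM in ApoE4, a log2 ratio of -0.90 and of -0.48 relative to the median, and Vim at 238 and 333 FPKM. Homeostatic astrocyte markers had none of 9 past 1.3-fold at 7 dpi. All 10 were higher in ApoE4 at 21 dpi, beside 58.9% of all genes, and 1 stayed past this fold relative to the median of all genes. The list median at 21 dpi was -0.58, or -0.16 relative to all genes.

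Proteases that serpins of this clade or their relatives can meet in injured tissue were also listed. Of 20 genes, 8 were listed at each time point. At 7 dpi Plau, the urokinase, was at least 1.3-fold higher in ApoE4, at 47.7 FPKM in ApoE3 and 71.9 FPKM in ApoE4, and none was higher in ApoE3, beside 4.76% and 3.78% of all genes. The list median was -0.26. The cathepsin gene Ctsb was at 1923 and 2330 FPKM. At 21 dpi 7 of 8 were higher in ApoE4, where 58.9% of all genes were, with a median log2 ratio of -0.71. Once the shift of the whole table was removed, 1 of the 8 was past this fold, and the list median was -0.29. Ctsb was at 599 FPKM in ApoE3 and 930.3 FPKM in ApoE4 and Klk6, a kallikrein of oligodendrocytes, at 523 and 865 FPKM.

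Serpins of other clades differed little at 7 dpi. Of 24 genes, 13 were listed, of which 1 was at least 1.3-fold higher in ApoE4 and 1, the neuroserpin gene Serpini1, in ApoE3, beside 4.76% and 3.78% of all genes, and the median log2 ratio was 0.0036. Serpine2, the abundant protease nexin, was at 612 FPKM in ApoE3 and 610 FPKM in ApoE4. At 21 dpi 7 of 13 were higher in ApoE4 and Serping1, the C1 inhibitor, in ApoE3, beside 58.9% and 2.01% of all genes. The list median was -0.49, near the median of all genes. Relative to that median, 3 were past this fold towards ApoE4 and 2 towards ApoE3, and the list median was -0.069. The other clade A genes were listed at 21 dpi only, where 5 of 14 had values, all at least 1.3-fold higher in ApoE4, beside 58.9% of all genes. All 5 stayed past this fold relative to the median of all genes, and the list median of -2.47 became -2.04. They were Serpina1 copies, the alpha-1-antitrypsin genes of liver, and summed to 0.522 FPKM in ApoE3 and 24.6 FPKM in ApoE4.

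**Figure D4:**
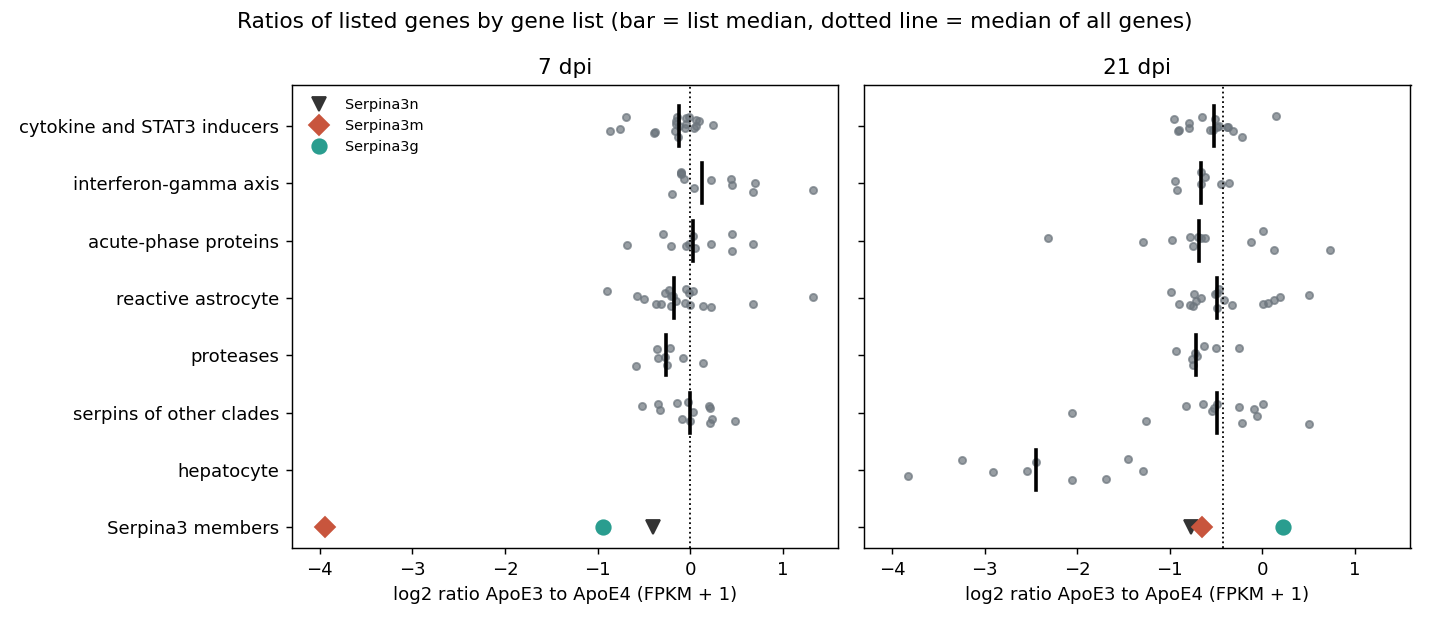
Log2 ratio of ApoE3 to ApoE4 on FPKM plus 1 for each listed gene (grey points) of 7 gene lists at 7 and 21 dpi, with the list median as a bar and the median of all genes as a dotted line. Serpina3m and Serpina3g lie below every plotted list gene at 7 dpi, and at 21 dpi the hepatocyte genes extend to -3.83 while the members lie between -0.77 and 0.22.

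Markers of other cell types were set beside the members, and their part in the members' values was not tested. None of 15 hepatocyte genes was listed at 7 dpi. At 21 dpi 9 were listed, all at least 1.3-fold higher in ApoE4, beside 58.9% of all genes. Apoa2 was at 5.38 and 59.2 FPKM, and 1 gene was listed at 0 in ApoE3. Together the 9 genes summed to 10.9 FPKM in ApoE3 and 130.2 FPKM in ApoE4. Their median log2 ratio of -2.45, or -2.02 relative to the median of all genes, was lower than those of Serpina3n and Serpina3m, and all 9 stayed past 1.3-fold on that scale. Of 7 skeletal muscle genes listed at 7 dpi, 1 was at least 1.3-fold higher in ApoE4 and 2 in ApoE3, beside 4.76% and 3.78% of all genes. The list median was 0.28. At 21 dpi 7 of 7 were higher in ApoE4, beside 58.9% of all genes, with a median of -4.27, or -3.85 relative to all genes, and all 7 stayed past 1.3-fold on that scale.

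Macrophage markers summed to 7500 FPKM in ApoE3 and 9789 FPKM in ApoE4 at 7 dpi. Of the 10, 2 were at least 1.3-fold higher in ApoE4, beside 4.76% of all genes, with a list median of -0.27. At 21 dpi 7 of 7 were, beside 58.9% of all genes, and 3 stayed past this fold relative to the median of all genes. The list median at 21 dpi was -0.77, or -0.34 on that scale. Microglia markers had none of 8 past 1.3-fold at 7 dpi, and neuron markers had 3 of 10 higher in ApoE3, beside 3.78% of all genes. At 7 dpi the list medians were -0.0006 for microglia and 0.28 for neurons, and all 10 neuron markers lay above the median of all genes. At 21 dpi 5 of 5 microglia markers and 7 of 8 neuron markers were higher in ApoE4, beside 58.9% of all genes. Of these, 2 and 1 stayed past this fold relative to the median of all genes. The list medians were then -0.66 for microglia and -0.50 for neurons, or -0.24 and -0.080 on that scale. No T or NK cell marker was listed at 7 dpi. Fibroblast markers were higher in ApoE4 in 4 of 9 cases at 7 dpi, and endothelial markers in 1 of 10, beside 4.76% of all genes. The list medians were -0.37 and -0.055. At 21 dpi 2 of 10 fibroblast markers were higher in ApoE4 and 3 in ApoE3, beside 58.9% and 2.01% of all genes. Once the shift of the whole table was removed, none of the 10 was past this fold towards ApoE4 and 5 were towards ApoE3. Their list median was -0.047, or 0.38 on that scale. Endothelial markers had 1 of 9 higher in ApoE4 at 21 dpi, beside 58.9% of all genes, and 2 towards ApoE3 on that scale. Their list median was -0.29, or 0.14 on that scale. The 2 T or NK cell markers with values at 21 dpi were higher in ApoE4, beside 58.9% of all genes. None was past this fold on that scale, with a list median of -0.67, or -0.25 on that scale.

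The direction of every genotype comparison rests on how the value columns are read. The columns number ApoE4 before ApoE3, but the name of the comparison places ApoE3 first and the study reads positive ratios as higher in ApoE3. That reading was used, and under the other one each direction above would be the opposite.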

How the data were processed

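The authors sequenced lesion segments with 100 nucleotide single-end reads, down-sampled each library to the size of the smallest, and used STAR 2.5.4b, SAMtools 0.1.7 and Cuffdiff 1.3.0 per the submitters' processing notes. Bowtie2 is also named there. The methods state that 1 library aligned less well than the others, and its part was not tested. The genome build and annotation of the authors are not given in the sources used here. The deposited values are FPKM plus 1 for each gene and group, which pool 3 mice. The same table holds the authors' p-values, q-values and fold changes, and a second one their differentially expressed genes, and neither was used.

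From these values 1 was subtracted, the FPKM of the members were summed, and ratios were taken as log2 of FPKM plus 1. With 1 value per group, no test was possible. A difference of at least 1.3-fold on this scale was counted, as a share of all listed genes and of the gene lists. Centring subtracted the median over genes whose mean FPKM reached 1. Named genes are the members, other listed Serpina3 genes, up to 4 of the most abundant genes of each list, and the 5 nearest in pattern to the sum and to Serpina3n. Further list genes were named after their values were seen, most of them for standing past 1.3-fold, as were the genes nearest to Serpina3g and Serpina3m. Values of some list genes are not reported here. The members, lists and alternatives were chosen with earlier results of these data known. The planned comparison of proteins was made on coding sequences. Sequence coordinates are those of GENCODE vM21 and RefSeq on GRCm38, and describe the reference only. The alternatives were pseudocounts of 0.1 and 0.01, centring, other fold changes, a minimum mean FPKM of 1, sums with other members, and the other reading of the genotypes. Python 3.11.15, numpy 2.4.6, pandas 2.3.3, Biopython 1.88 and matplotlib 3.10.9 were used, and the procedures were checked on simulated data.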

Additional observations from a re-analysis of the deposited data

Results flagged for a closer look

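Serpina3g had a log2 ratio of ApoE3 to ApoE4 of -0.95 at 7 dpi and 0.22 at 21 dpi, so the genotype with the higher value was not the same at both times. Each ratio rests on 1 pooled value per group, and the difference between the time points was not tested.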

How the results depend on the processing

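Pseudocounts of 0.1 and 0.01 left the sign of every ratio of the members and of the sum, and the ratio of Serpina3m at 7 dpi reached -4.36 and -4.41. Centring moved the sum to -0.33 at 21 dpi, and its ratios of 21 to 7 dpi to -0.47 in ApoE3 and -0.62 in ApoE4. Centring also left 1 member past 1.3-fold at 21 dpi, which was Serpina3g in the direction of ApoE3. A fold change of at least 2 left 1 member at 7 dpi and 0 at 21 dpi, and with a minimum mean FPKM of 1 the members past 1.3-fold stayed 3 and 2. Without Serpina3n the sum of the others had a ratio of -2.55 at 7 dpi and -0.42 at 21 dpi, and its ratio of 21 to 7 dpi was -0.54 in ApoE4 and reversed to 1.59 in ApoE3, which is the value of Serpina3m and Serpina3g alone. Without Serpina3m the sum stood at -0.41 at 7 dpi, and at -0.43 in ApoE3 and -0.081 in ApoE4 between the time points. With the other Serpina3 genes the last value was -0.093. Reading the genotypes by the numbering of the columns reversed the sums to 0.47 at 7 dpi and 0.75 at 21 dpi, Serpina3g to 0.95, Serpina3m to 3.94 and Serpina3n to 0.40 at 7 dpi, and Serpina3m to 0.65 and Serpina3n to 0.77 at 21 dpi, and turned Serpina3g to -0.22 at 21 dpi.

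The table pools the mice of a group, so leaving out a replicate was not run. No paired analysis was possible because each group has 1 pooled value. Reads per gene are unknown, and low values such as the 2.37 FPKM of Serpina3m carry a counting error that cannot be given.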
